A study of Mus musculus with 24 samples.

Results

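Transcript levels of 10 genes of epithelial cell junctions and the intestinal brush border were compared between parental, chronic interferon gamma (IFNG) and relapsed tumours of 2 mouse lung cancer lines. The genes are a list of names, drawn up with earlier results of these data known: the adhesion molecule gene Epcam, the cadherin genes Cdh1 and Cdh17, the protocadherin genes Cdhr2 and Cdhr5, the tight junction genes Ocln, Cldn3, Cldn4 and Cldn7, and the villin gene Vil1. All 10 were found among the 31618 genes of the LLC1 table and the 36040 genes of the KP table. Against parental KP tumours 7 of the 10 genes were higher in chronic IFNG and 9 in 1st relapse (12.8% and 25.4% of all tested genes). In 2nd relapse 9 were higher and in late relapse 7 (36.8% and 31%). Of the 10 genes 6 passed the filter on low values in parental KP tumours, and the others only through groups in which they were high. In LLC1 tumours 1 of the 10, Ocln, passed the filter, as did 33.5% of all genes.

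Epithelial cells are sealed to each other by tight junctions, in which claudins form the strands and occludin is a second membrane protein, and are held together by adherens junctions built on E-cadherin. Epcam is a homophilic adhesion protein of many simple epithelia and carcinomas. The brush border is the array of microvilli on absorptive cells of the gut and kidney, in which villin bundles actin and the protocadherins Cdhr2 and Cdhr5 link the tips of neighbouring microvilli. Cdh17 is a cadherin of the intestinal lateral membrane that lacks a catenin-binding tail.

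The study took tumours at day 15 after mice had been injected with cells of 1 of 2 syngeneic models, Lewis lung carcinoma (LLC1) or KP, and sorted live cells without the leukocyte surface protein CD45. KP cells come from a genetically engineered model that carries p53 flox/flox, for which the labels name no Cre driver. With 3 libraries in each of 8 groups, LLC1 tumours were labelled Parental, Chronic IFNG or Relapsed, and KP tumours Parental or Chronic IFNG or as 1st, 2nd or Late relapse. Per the series design, chronic IFNG stands for lasting exposure to a low level of the cytokine, and relapse for regrowth after immune checkpoint blockade. The labels give the treatment of every library as none and do not state mouse strain, age, when IFNG was given or how many lines or clones each group represents. The submitters call the libraries biological replicates but do not say that they came from separate animals, so p-values measure the spread between these libraries.

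Estimated depth was about 13300000 to 35000000 fragments per library in LLC1 and 13700000 to 32700000 in KP, and 3 reads corresponded to 2.02 to 5.10 and 2.21 to 4.85 normalised counts. Levels are normalised counts calculated back from the deposited log2-scale values, with folds being ratios of their group means. Log2 differences are on the deposited scale, which is compressed at low counts. Genes were called where the limma adjusted p lay below 0.05, with adjustment over the 10581 LLC1 or 11193 KP genes with a group mean at least 1 log2 unit above the lowest value (130.4 and 144.2 normalised counts). The lines were normalised separately and were not tested against each other. Ptprc, which encodes CD45, averaged 28.4 to 104.5 normalised counts in the KP groups and 16.6 to 44.5 in the LLC1 groups, under the filter. A bulk library cannot tell fewer cells of a type from less RNA per cell.

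Promoter sequence from RefSeq (GRCm38.p6) was matched by symbol for 8 of the 10 genes, in 10 windows of 300 bases from 250 bases before to 50 after a transcript start. Not matched were Cdh1 and Cdh17. The windows were searched on both strands for the E-box CAGGTG bound by Snai and Zeb repressors, a Grhl site AACCNGTT, a Cdx site TTTATNG and an Hnf4-type site CAAAGNCCA. At least 1 E-box was found in 8 of the 10 windows, belonging to all of the 8 matched genes but Cdhr5, and in 20.2% of all 32851 windows in the RefSeq table. Of the other motifs, the Cdx site was found in Epcam (10.9% of all windows), whereas 0 of 8 genes had the Grhl site (2.09%) or the Hnf4-type site (1.98%). A match describes these letters only and is not evidence of binding. The windows of 5 genes are printed without their last 20 bases because the results turn on them: Epcam and Cldn7 for their different order across KP groups, Ocln as the gene that changed in LLC1, Cldn4 as the gene not called against parental KP tumours, and Cdhr2 as the gene with the largest fold. Of the 2 windows each of Ocln and Cldn7 the second is shown. The other window holds 0 E-boxes in Cldn7 and 2 in Ocln. The 2 Ocln windows overlap, and 1 of those 2 E-boxes is the same site as the printed one. The printed windows lie at chr17:87635729-87636008 (Epcam, plus strand), chr13:100552689-100552968 (Ocln, minus), chr11:69965171-69965450 (Cldn7, plus), chr5:134946905-134947184 (Cldn4, minus) and chr13:54701213-54701492 (Cdhr2, plus). Capitals mark matches to any of the 4 motifs in either orientation, and each line reads 5′ to 3′ in the direction of transcription.
Epcam: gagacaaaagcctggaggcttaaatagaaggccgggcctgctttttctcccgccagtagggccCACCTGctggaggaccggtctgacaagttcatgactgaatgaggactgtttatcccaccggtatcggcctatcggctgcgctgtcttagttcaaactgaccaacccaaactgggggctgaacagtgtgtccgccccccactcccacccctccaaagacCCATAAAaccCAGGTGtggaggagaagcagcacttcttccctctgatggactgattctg
Ocln: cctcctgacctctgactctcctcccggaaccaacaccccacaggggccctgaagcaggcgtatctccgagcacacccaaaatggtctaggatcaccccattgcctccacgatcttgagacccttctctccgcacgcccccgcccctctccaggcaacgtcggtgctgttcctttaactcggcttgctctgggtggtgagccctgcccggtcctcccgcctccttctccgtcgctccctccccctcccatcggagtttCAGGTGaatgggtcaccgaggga
Cldn7: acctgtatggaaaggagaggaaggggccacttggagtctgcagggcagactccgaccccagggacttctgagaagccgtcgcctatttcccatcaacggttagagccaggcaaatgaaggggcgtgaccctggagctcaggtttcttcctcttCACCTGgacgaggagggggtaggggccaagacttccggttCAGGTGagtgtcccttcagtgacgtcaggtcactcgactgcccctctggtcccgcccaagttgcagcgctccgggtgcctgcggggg
Cldn4: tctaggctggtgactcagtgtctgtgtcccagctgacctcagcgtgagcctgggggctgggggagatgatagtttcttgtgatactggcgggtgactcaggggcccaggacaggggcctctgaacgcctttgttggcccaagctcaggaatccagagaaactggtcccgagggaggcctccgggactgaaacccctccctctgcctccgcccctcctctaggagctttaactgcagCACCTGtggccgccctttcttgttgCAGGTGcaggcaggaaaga
Cdhr2: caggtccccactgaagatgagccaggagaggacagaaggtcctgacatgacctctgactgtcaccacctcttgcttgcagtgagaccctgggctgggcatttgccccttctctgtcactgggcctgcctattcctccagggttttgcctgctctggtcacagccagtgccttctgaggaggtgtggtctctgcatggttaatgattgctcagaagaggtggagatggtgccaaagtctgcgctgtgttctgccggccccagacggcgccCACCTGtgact

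In KP tumours most of the 10 genes were higher in the chronic IFNG and relapsed groups than in parental tumours, and Cldn4 was called in none of them. Against parental tumours 7 of the 10 genes rose and 0 fell in chronic IFNG tumours, where 12.8% of all tested genes were higher and 9% lower. In 1st relapse tumours 9 of 10 rose and 0 fell (25.4% higher and 25.5% lower among all genes), in 2nd relapse 9 rose and 0 fell (36.8% and 29%), and in late relapse 7 rose and 0 fell (31% and 25.9%). The median log2 difference of the 10 genes was 0.58, 1.19, 1.06 and 0.81 in that order of groups, while that of all tested genes was -0.01, -0.01, 0.03 and 0.01. These 4 comparisons share the parental libraries and are not independent. Of the 10 genes 6 passed the filter in parental tumours, and Cldn3, Cldn7, Cdhr2 and Cdhr5 passed only through groups in which they were high, so the counts describe the list and are no test of it.

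**Figure D1:**
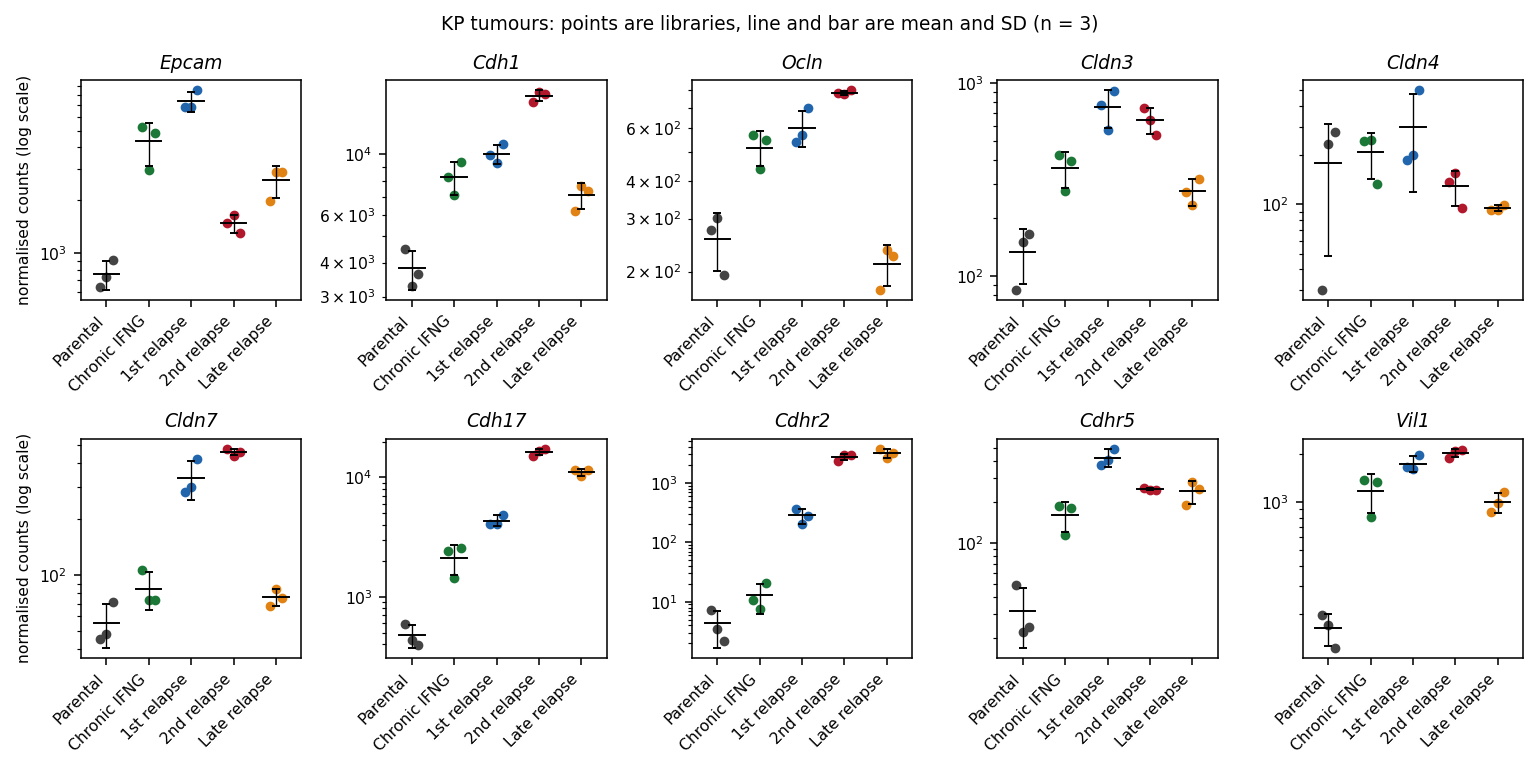
Normalised counts (log scale, 1 panel per gene) of the 10 genes in the 15 KP libraries, with points for libraries and bars for mean and SD (n = 3). Epcam, Cldn3 and Cdhr5 were highest in 1st relapse, Cdh1, Ocln, Cldn7, Cdh17 and Vil1 in 2nd relapse and Cdhr2 in late relapse, while Cldn4 varied widely within groups.

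Epcam (chr17:87635979-87651129, 15151 bases) was lowest in parental tumours and highest in 1st relapse. Its normalised counts were 635, 725 and 914 in the parental libraries and 5229, 2965 and 4813 in chronic IFNG. They were 6826, 6779 and 8497 in 1st relapse, 1473, 1649.8 and 1299 in 2nd relapse, and 1980.5, 2908 and 2907 in late relapse. No 2 of the 5 groups overlapped, and the order was 1st relapse, chronic IFNG, late relapse, 2nd relapse, parental. Epcam rose 5.72-fold in chronic IFNG (log2 difference 1.92, SE 0.17, limma adjusted p 4.3e-06), 9.72-fold in 1st relapse, 1.94-fold in 2nd relapse and 3.43-fold in late relapse. Between 1st and 2nd relapse it fell 5.0-fold (log2 difference -1.98, limma adjusted p 1.48e-07). It was higher in late than in 2nd relapse tumours (1.76-fold, limma adjusted p 0.00539).

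Cdh1 (chr8:106603351-106670246), which encodes E-cadherin, was present in every KP library and highest in 2nd relapse. Its counts were 4494, 3288 and 3631 in parental tumours, 8273, 7089.9 and 9408 in chronic IFNG, and 9923, 9328 and 10916 in 1st relapse. The 2nd relapse libraries held 15586, 17036 and 16748, and the late relapse libraries 6212, 7665 and 7337. All 12 non-parental libraries lay above the 3 parental ones, and the 2nd relapse libraries lay above all others. Against parental tumours Cdh1 rose 2.17-fold in chronic IFNG (log2 difference 1.02, SE 0.11, limma adjusted p 1.23e-05), 2.64-fold in 1st relapse, 4.33-fold in 2nd relapse and 1.86-fold in late relapse. Chronic IFNG overlapped both 1st relapse (1st relapse minus chronic 0.27, 95% interval 0.04 to 0.51, limma adjusted p 0.0706) and late relapse (late minus chronic -0.20, interval -0.44 to 0.03, limma adjusted p 0.133). The first of these was called without Parental KP replicate 1 (limma adjusted p 0.0462) or Chronic IFNG KP replicate 3 (0.031), and the second without Chronic IFNG KP replicate 2 (0.0375). Epcam and Cdh1 thus took opposite steps between 1st and 2nd relapse, where Cdh1 rose 1.64-fold (limma adjusted p 7.93e-05).

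Ocln (chr13:100496507-100552718, minus strand), which encodes occludin, was high in all KP groups but parental and late relapse. Its counts were 274, 301 and 195 in parental, 567, 438 and 545 in chronic IFNG, and 541, 567 and 697 in 1st relapse tumours. They were 782, 776 and 801 in 2nd relapse and 174, 235 and 226 in late relapse. Late relapse libraries overlapped the parental ones, and the other 3 groups did not. Ocln rose 2.01-fold in chronic IFNG (log2 difference 0.50, SE 0.08, limma adjusted p 0.000277), 2.34-fold in 1st relapse and 3.06-fold in 2nd relapse, whereas the late relapse difference was not called (-0.11, 95% interval -0.28 to 0.05, limma adjusted p 0.233). From 2nd to late relapse it fell 3.71-fold (limma adjusted p 9.79e-08). The 2nd relapse excess over 1st relapse was 1.31-fold (limma adjusted p 0.0138) and was lost without 1st relapse KP replicate 1 (limma adjusted p 0.061).

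The 3 claudin genes differed from each other. Cldn3 (chr5:134986214-134987472) measured 85.6, 150.0 and 166 in parental, 423, 278 and 395 in chronic IFNG, 766, 574 and 908 in 1st relapse, 739, 646 and 541 in 2nd relapse, and 273, 234 and 321 in late relapse. It was higher than in parental tumours in every library of the 4 other groups, by 2.73-fold in chronic IFNG (log2 difference 0.59, SE 0.11, limma adjusted p 0.00142), 5.6-fold in 1st relapse, 4.80-fold in 2nd relapse and 2.06-fold in late relapse (limma adjusted p 0.00646). The 1st and 2nd relapse libraries overlapped (2nd minus 1st -0.13, 95% interval -0.37 to 0.11, limma adjusted p 0.319).

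Cldn7 (chr11:69964779-69967885) was called higher in the 1st and 2nd relapse groups and in neither of the other 2. It measured 45.2, 48.3 and 72.0 in parental, 107, 73.3 and 73.6 in chronic IFNG, and 68.5, 84.7 and 75.2 in late relapse tumours. The 1st relapse libraries held 281, 297 and 424 and the 2nd relapse libraries 480.4, 441 and 462. The latter 6 libraries lay above the other 9. Against parental tumours Cldn7 rose 6.06-fold in 1st relapse (log2 difference 0.86, SE 0.07, limma adjusted p 2.35e-07) and 8.36-fold in 2nd relapse (1.10, limma adjusted p 4.92e-09), with differences of 0.15 (95% interval -0.003 to 0.30, limma adjusted p 0.157) in chronic IFNG and 0.11 (-0.04 to 0.26, 0.195) in late relapse. The 2nd relapse level was also above 1st relapse (1.38-fold, limma adjusted p 0.00786) and 6.06-fold above late relapse (limma adjusted p 3.53e-08).

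Cldn4 (chr5:134945119-134946934, minus strand) lies 39279 bases from Cldn3 and was not called against parental tumours in any group. It measured 30.1, 233 and 278 in parental, 246, 246 and 134 in chronic IFNG, 188, 199 and 501 in 1st relapse, 137, 156 and 95.5 in 2nd relapse, and 92.6, 92.5 and 99.0 in late relapse libraries. Parental replicate 1 was the lowest of all 15 libraries, and each group's range overlapped the parental range. Differences from parental tumours were 0.15 (95% interval -0.28 to 0.59), 0.33 (-0.10 to 0.77), -0.08 (-0.52 to 0.35) and -0.21 (-0.65 to 0.22), so a change of the size seen for Cldn3 in late relapse (0.40) lies inside the first 2 intervals. Leaving out parental replicate 1 gave a late relapse difference of -0.50 (limma adjusted p 0.0183). Late relapse was 3.13-fold below 1st relapse (limma adjusted p 0.0379), a call that was lost without 1st relapse KP replicate 3 (limma adjusted p 0.186) and without Late relapse KP replicate 1, 2 or 3 (0.0809, 0.0769 and 0.0692).

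Cdh17 (chr4:11758147-11817895) had the largest log2 difference of the 10 genes in 2nd relapse. Its counts were 591, 436 and 397 in parental, 2396, 1428 and 2547 in chronic IFNG, and 4052, 4110.3 and 4875 in 1st relapse tumours. They reached 15284, 16522 and 17391 in 2nd relapse and 11489, 10194 and 11498 in late relapse. No 2 groups overlapped, and the order was 2nd relapse, late relapse, 1st relapse, chronic IFNG, parental. Cdh17 rose 4.48-fold in chronic IFNG (log2 difference 1.45, SE 0.14, limma adjusted p 5.48e-06), 9.16-fold in 1st relapse, 34.6-fold in 2nd relapse (4.14, limma adjusted p 9.45e-12) and 23.3-fold in late relapse (3.6, limma adjusted p 1.32e-10). In both 2nd and late relapse it ranked 3 of the 11193 tested genes by absolute log2 difference from parental tumours. The late relapse level was 1.48-fold below 2nd relapse (limma adjusted p 0.0039, and 0.0503 after quantile normalisation).

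Cdhr2 (chr13:54701461-54736662), a protocadherin of microvillar tips, was near the detection floor in parental and chronic IFNG tumours and one of the leading genes of the set in 2nd and late relapse. The parental libraries held 7.3, 3.5 and 2.2 normalised counts, 16 estimated reads in all, and the chronic IFNG libraries 10.9, 7.5 and 20.6. The relapse libraries held 369.9, 205 and 280.2 in 1st relapse, 2334, 2989.8 and 2925 in 2nd relapse, and 3764, 2657 and 3153 in late relapse. The 9 relapse libraries lay above the other 6 without overlap, and 2nd and late relapse overlapped each other. The fold over parental tumours was 65.7 in 1st relapse (counting interval 39.2 to 112.9), 634 in 2nd relapse (389.9 to 1109) and 736 in late relapse (443.9 to 1262), where the 95% intervals cover counting error only. The log2 differences were 1.20, 3.34 and 3.52 (SE 0.11, limma adjusted p 6.56e-07, 8.65e-12 and 2.51e-11), ranking 13 of 11193 in 2nd relapse and 4 in late relapse. In chronic IFNG tumours the fold was 3.00 (counting interval 1.54 to 5.43, 38 against 16 estimated reads). The log2 difference was not called there (0.13, 95% interval -0.11 to 0.36, limma adjusted p 0.449) although each library was above each parental one. Late and 2nd relapse were not called apart (late minus 2nd 0.18, interval -0.06 to 0.41, limma adjusted p 0.183), except without Late relapse KP replicate 2 (limma adjusted p 0.0437).

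Cdhr5 (chr7:141269083-141276786, minus strand), the partner of Cdhr2 at microvillar tips, peaked in 1st relapse. It measured 48.7, 22.1 and 23.9 in parental, 187, 114 and 181 in chronic IFNG, 373, 409 and 496 in 1st relapse, 253, 247 and 245 in 2nd relapse, and 189, 280.3 and 249.8 in late relapse. Parental libraries lay below and 1st relapse libraries above all others, while 2nd and late relapse overlapped (late minus 2nd -0.03, 95% interval -0.20 to 0.14, limma adjusted p 0.807). Cdhr5 rose 5.09-fold in chronic IFNG (log2 difference 0.58, SE 0.08, limma adjusted p 9.62e-05), 13.5-fold in 1st relapse, 7.86-fold in 2nd relapse and 7.59-fold in late relapse. From 1st to 2nd relapse Cdhr5 fell 1.72-fold (limma adjusted p 0.00109) while Cdhr2 rose 9.65-fold (limma adjusted p 9.08e-10). Its excess in 2nd relapse over chronic IFNG (1.54-fold, limma adjusted p 0.0135) was lost without Chronic IFNG KP replicate 2 (limma adjusted p 0.0738).

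Vil1 (chr1:74409376-74435559), which encodes the microvillar actin bundler villin, rose in all 4 groups. Its counts were 196, 169 and 122 in parental, 1382, 802 and 1338 in chronic IFNG, and 1649.8, 1606 and 1971 in 1st relapse. In 2nd relapse they were 1893, 2086 and 2124, and in late relapse 864, 992 and 1149. Every non-parental library lay above the parental ones, and 2nd relapse overlapped 1st relapse (2nd minus 1st 0.18, 95% interval -0.08 to 0.44, limma adjusted p 0.213). The folds over parental tumours were 7.23 in chronic IFNG (log2 difference 1.49, SE 0.12, limma adjusted p 4.13e-06), 10.7 in 1st relapse, 12.5 in 2nd relapse and 6.17 in late relapse. The excess of 1st relapse over chronic IFNG (1.48-fold, limma adjusted p 0.0139) was lost without Chronic IFNG KP replicate 2 (limma adjusted p 0.0504) or 1st relapse KP replicate 3 (0.0615). Vil1 shares 49 bases with Usp37 on the opposite strand and Cldn3 shares 40 bases with the antisense transcript Wbscr25, and the libraries were made with a stranded kit.

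**Figure D2:**
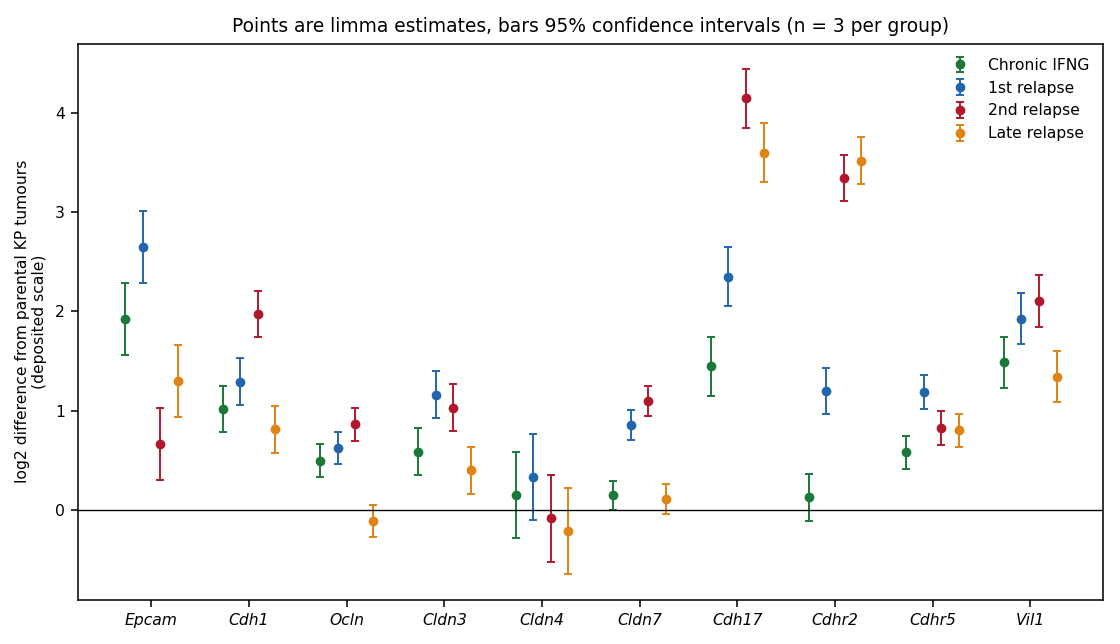
Log2 difference from parental KP tumours on the deposited scale (y axis) for the 10 genes (x axis), with limma estimates as points and 95% confidence intervals as bars (n = 3 per group). Cdh17 and Cdhr2 stand at 3.34 to 4.14 in 2nd and late relapse, whereas all 4 intervals of Cldn4 and the late relapse intervals of Ocln and Cldn7 include 0, as do those of Cldn7 and Cdhr2 in chronic IFNG.

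The groups other than parental also differed from each other in these genes. Against chronic IFNG tumours 7 of 10 genes rose and 0 fell in 1st relapse (15.8% of all tested genes were higher and 15.1% lower), 8 rose and 1, Epcam, fell in 2nd relapse (35.1% and 29.2%), and 3 rose and 2 fell in late relapse (25.8% and 24.6%). Rising in late relapse were Cdh17 (5.21-fold), Cdhr2 (245-fold) and Cdhr5 (1.49-fold, limma adjusted p 0.0303), and falling were Epcam (1.67-fold) and Ocln (2.44-fold). The Cdhr5 call was lost without Chronic IFNG KP replicate 2 (limma adjusted p 0.145) or Late relapse KP replicate 2 (0.123) or 3 (0.078). Vil1, not called in this comparison, fell in it without Chronic IFNG KP replicate 2 (limma adjusted p 0.0109). From 1st to 2nd relapse 5 genes rose (Cdh1, Ocln, Cldn7, Cdh17, Cdhr2) and 2 fell (Epcam, Cdhr5), with 34.3% of all tested genes higher and 28% lower. From 1st to late relapse 2 rose (Cdh17 and Cdhr2) and 8 fell, Cldn4 among them (24.6% and 23.5%). Between 2nd and late relapse 1 gene, Epcam, rose and 6 fell (25.2% and 29.7%).

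Set against length, the leading gene changed between groups. Per kilobase of the longest coding transcript, Cdh1 led the 10 genes in parental tumours (859 normalised counts per kilobase), followed by Epcam (372) and Cdh17 (137). Epcam led in chronic IFNG (2125) and 1st relapse (3611), and Cdh17 in 2nd (4737) and late relapse (3195). Cdhr2 was the lowest of the 10 in parental (1.05), chronic IFNG (3.15) and 1st relapse tumours (69.0) and ranked 4 in 2nd (666) and late relapse (773). As a share of all counts, the 10 genes together averaged 253 ± 19.4 CPM (counts scaled to the library total; SD, n = 3) in parental, 755 ± 145.6 in chronic IFNG, 1191 ± 119.8 in 1st relapse, 1626 ± 76.9 in 2nd relapse and 1087 ± 31.6 in late relapse.

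Across the 15 KP libraries, pairs of these genes followed each other to different degrees. Pearson's r of the deposited values was 0.94 for Cdh1 with Vil1, 0.93 for Cdh17 with Cdhr2, and 0.90 for Vil1 with Cdhr5. It was -0.07 for Epcam with Cdhr2, -0.26 for Cldn4 with Cdh17 and lowest, at -0.41, for Cldn4 with Cdhr2. The neighbouring genes Cldn3 and Cldn4 had r = 0.41. These are descriptions over libraries that share groups and scaling. With group means removed, r was 0.88 for Cdh17 with Vil1, 0.86 for Cdh1 with Cdhr5 and 0.40 for Cdh17 with Cdhr2. Chronic IFNG KP replicate 2 was the lowest of its group for Epcam, Cdh1, Ocln, Cldn3, Cldn7, Cdh17, Cdhr2, Cdhr5 and Vil1.

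By the same measure over 15 libraries, the genes most like 9 of the 10 were named. For Cldn3, Bag1 (0.95) was among the 3 most like. Epcam was most like Tspan13 (r = 0.99), Cdh1 like Arl14 (0.99), Ocln like Tns4 (0.97), Cldn7 like Cdcp1 (0.97) and Cldn4, the least closely, like Tph1 (0.90). Among the brush border genes, Cdh17 was most like F3 (0.99), Cdhr2 like Apoc2 (1.00), Cdhr5 like Cnp (0.98), and Vil1 like the transcription factor gene Gata5 (0.99) and Ctse (0.99).

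Other junction genes were counted by list. Of all tested genes, 12.8% were higher and 9% lower against parental tumours in chronic IFNG, and 25.4% and 25.5% in 1st relapse. The shares were 36.8% and 29% in 2nd relapse and 31% and 25.9% in late relapse. Of the tested genes 6 of 18 in the tight junction list, 0 of 10 in the adherens junction list and 2 of 8 in the desmosome list were under the filter in parental tumours and entered through groups in which they were higher, so that the tight junction and desmosome counts and medians lean towards genes that rose and are no test of the lists. Of 18 tested tight junction genes, 14 rose and 1 fell against parental tumours in chronic IFNG, 11 and 3 in 1st relapse, 11 and 3 in 2nd relapse, and 13 and 2 in late relapse, with median differences of 0.54, 0.62, 0.59 and 0.53. Cldn2, a pore-forming claudin, rose 8.66-fold in 1st relapse (929 ± 292 to 8042 ± 923), and the scaffold gene Tjp3 7.38-fold, whereas Cldn18 fell from 841 ± 203 to 15.3 ± 10.5 in late relapse. Of 10 adherens junction genes, 6 rose and 1 fell in chronic IFNG, 3 and 2 in 1st relapse, 2 and 5 in 2nd relapse and 4 and 5 in late relapse. Cdh2, which encodes N-cadherin, fell in 2nd relapse from 1504 ± 96.9 to 456 ± 98.6, with Nectin3 (285 ± 13.3 to 40.6 ± 6.78) and Nectin1 (206 ± 31.0 to 45.1 ± 10.1). In late relapse Cdh2 rose 1.63-fold. Of 8 desmosome genes 7 rose and 1 fell in chronic IFNG, 6 and 1 in 1st relapse, 6 and 2 in 2nd relapse, and 5 and 2 in late relapse. Desmoplakin (Dsp) rose 7.94-fold in 2nd relapse and desmoglein Dsg2 6.80-fold in 1st relapse, while Pkp1 fell in 2nd relapse from 1704 ± 136.6 to 216 ± 47.4.

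The same lean towards genes that rose holds for Epcam partners and brush border genes, of which 1 of 3 and 3 of 9 tested genes were under the filter in parental tumours. Of 5 Epcam partners 3 were tested, and 3, 3, 2 and 2 of them rose and 0, 0, 1 and 0 fell in chronic IFNG, 1st, 2nd and late relapse. Among all tested genes 12.8%, 25.4%, 36.8% and 31% were higher and 9%, 25.5%, 29% and 25.9% lower in that order of groups. Spint2, an inhibitor of the membrane protease matriptase, rose 4.64-fold in 2nd relapse, and its relative Spint1 rose 7.80-fold in 1st relapse. The matriptase gene St14 rose 5.88-fold in 1st relapse and fell in 2nd relapse (log2 difference -0.34). Of 18 brush border genes 9 were tested, and 6, 7, 8 and 7 rose and 0, 1, 1 and 1 fell, with medians of 0.49, 0.88, 0.95 and 0.75. Myo7b, the myosin that binds the Cdhr2 and Cdhr5 adhesion complex at microvillar tips, was the leading gene at 55.1 ± 18.1 in parental and 1405 ± 154 in 2nd relapse tumours (25.5-fold, limma adjusted p 2.77e-11). The actin bundler Pls1 (5.32-fold) and Myo1d (4.22-fold) rose in 1st relapse. Several classical brush border genes stayed low, as Mep1b averaged at most 6.2 and Ush1c, which encodes the scaffold of the same complex, at most 4.4 normalised counts in every group.

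**Figure D3:**
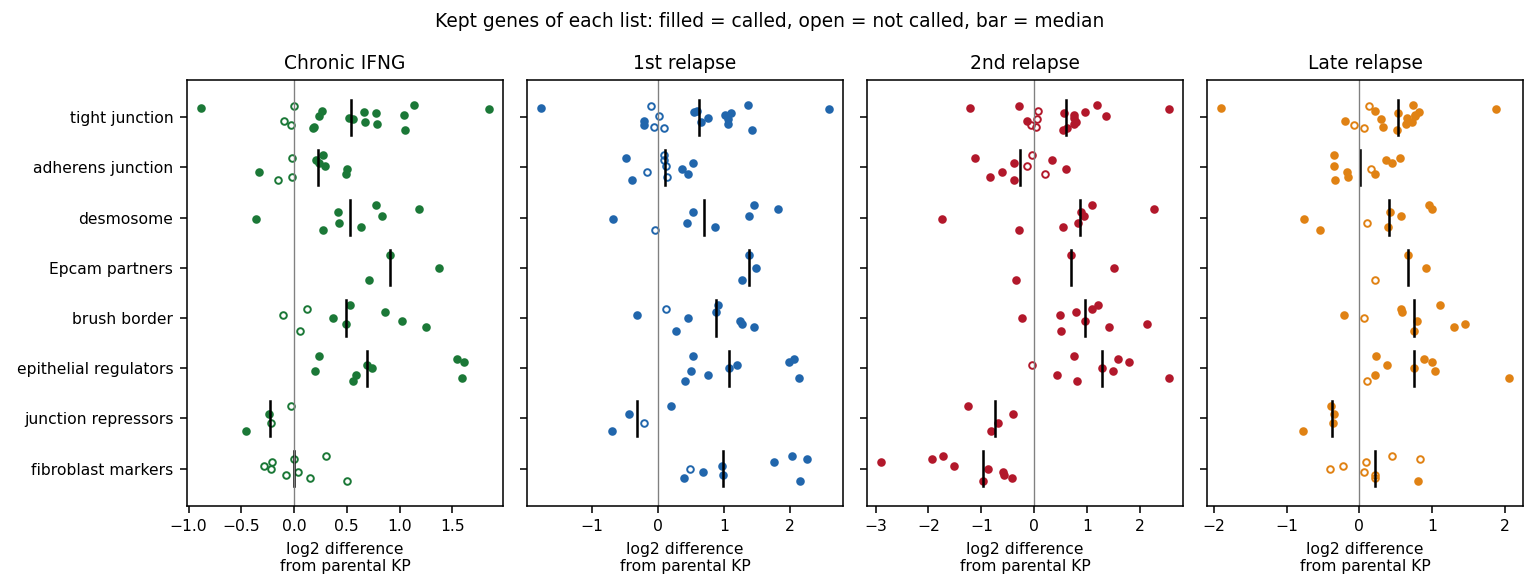
Log2 difference from parental KP tumours on the deposited scale (x axis, 1 panel per group) for the tested genes of 8 lists, with filled points for called genes, open points for others and bars for medians. Epithelial regulators lie at or above 0 in all panels but for Esrp1 at -0.04 in 2nd relapse, and the 9 fibroblast markers lie all above 0 in 1st relapse and all below 0 in 2nd relapse. Of the 9 regulators 4 were under the filter in parental tumours and entered through groups in which they were higher.

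Of the 15 listed regulators of epithelial genes 9 were tested, 4 of them under the filter in parental tumours. All 9 rose in chronic IFNG and in 1st relapse, and 8 rose and 0 fell in 2nd and in late relapse, with medians of 0.69, 1.07, 1.28 and 0.75. Of all tested genes 12.8%, 25.4%, 36.8% and 31% were higher and 9%, 25.5%, 29% and 25.9% lower in that order of groups. The counts and medians of the regulators lean towards genes that rose and are no test of the list. Hnf4a, a nuclear receptor gene of gut and liver epithelium, measured 580.0, 248.9 and 325 in parental and 4062, 4512 and 4550.2 in 2nd relapse libraries, which did not overlap (11.4-fold, log2 difference 2.54, limma adjusted p 2.06e-09). The Ets factor genes Ehf and Elf3 rose 7.89-fold and 9.02-fold in 1st relapse. The intestinal factor gene Cdx2 averaged 24.0 in parental and 195 in 2nd relapse tumours. Of the 4 tested repressors of junction genes, 0 rose and 2 fell in chronic IFNG, 1 rose and 2 fell in 1st relapse, and 4 fell in both 2nd and late relapse. Twist1 measured 272, 314 and 305 in parental and 3.0, 2.1 and 5.9 in 2nd relapse libraries, but rose in 1st relapse (log2 difference 0.19, limma adjusted p 0.0144). In 2nd relapse Zeb1 fell from 2168 ± 121 to 1166 ± 179.8 and Zeb2 from 2604 ± 138 to 1269 ± 167.

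Markers of other cells were measured beside these genes. Summed over 9 fibroblast markers, normalised counts ranged from 14629 to 23600 in parental, 9965 to 31601 in chronic IFNG, 63984 to 87689 in 1st relapse, 1590.5 to 2449 in 2nd relapse and 12833 to 60860 in late relapse libraries. By gene, 0 of 9 were called in chronic IFNG, 8 rose in 1st relapse, 9 fell in 2nd relapse and 1 rose in late relapse. Among all tested genes 12.8%, 25.4%, 36.8% and 31% were higher and 9%, 25.5%, 29% and 25.9% lower in that order of groups. Within chronic IFNG the library with the highest fibroblast sum, replicate 2, held the lowest sum of the 10 genes (13443 against up to 19454). In late relapse, with fibroblast sums of 12833 to 60860, the sum of the 10 genes ranged only from 25106 to 27014. In 1st relapse both sums lay above parental (24075 to 29566 against 5377 to 6407 for the 10 genes). In 2nd relapse the fibroblast sum lay below parental and the sum of the 10 genes above (38961 to 42633). Summed leukocyte markers ranged from 174 to 237 in 2nd relapse and from 267 to 721 in the other KP groups, and endothelial markers from 43.2 to 168 in all. Of 8 leukocyte markers 1, the macrophage and granulocyte gene Lyz2, passed the filter (161 ± 73.2 in parental and 31.1 ± 10.8 in 2nd relapse), and of 8 endothelial markers 0 did. Keratinocyte markers ranged from 797 to 1013 in 2nd relapse and from 176 to 311 elsewhere. Krt14 accounted for most of this, rising 9.04-fold in 2nd relapse, while Krt5 averaged at most 16.5. Summed lung epithelium markers ranged from 21.2 in 2nd relapse to 79.9 in chronic IFNG libraries, and 0 of the 8 listed passed the filter. Among them Sftpb averaged at most 5.2 and Scgb3a2 at most 0.7 in any KP group, so other markers of the list held most of the sum. The part of these cells in the differences was not tested.

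**Figure D4:**
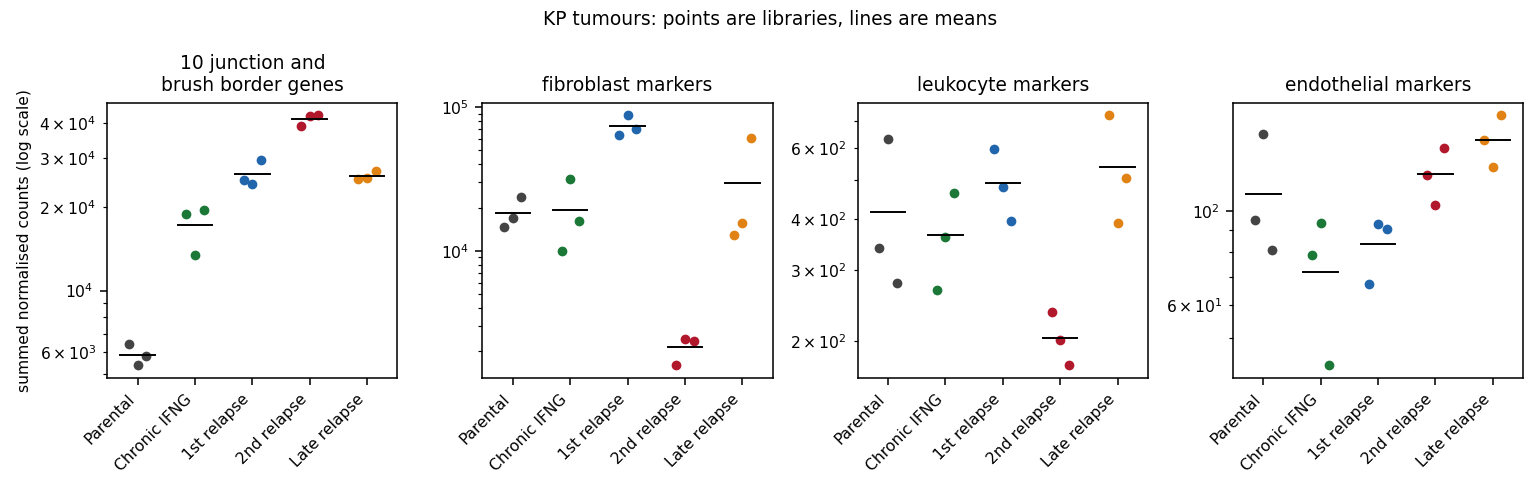
Summed normalised counts (log scale) of the 10 epithelial genes and of fibroblast, leukocyte and endothelial markers in the 15 KP libraries, with points for libraries and lines for means. The sums of the 10 genes ranged from 5377 to 6407 in parental and from 38961 to 42633 in 2nd relapse libraries.

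In LLC1 tumours Ocln was the 1 gene of the 10 that passed the filter on low values. Its normalised counts were 119.6, 122 and 109 in parental, 75.6, 69.6 and 60.8 in chronic IFNG and 708, 602 and 669 in relapsed libraries. The 3 groups did not overlap, with chronic IFNG lowest and relapsed highest. Ocln fell 1.70-fold in chronic IFNG tumours (log2 difference -0.22, SE 0.05, limma adjusted p 0.0139), where 9.03% of all tested genes were higher and 15.5% lower, and rose 5.66-fold in relapsed tumours (1.15, SE 0.05, limma adjusted p 1.5e-07), where 25.9% were higher and 19.5% lower. Relapsed tumours were 9.61-fold above chronic IFNG tumours (limma adjusted p 4.87e-08), a comparison in which 31.5% of tested genes were higher and 20.5% lower. It passed only through the relapsed group. Over the 9 LLC1 libraries the genes most like it were Cdk2ap2, Drap1 and Itgb2 (r = 1.00, 0.99 and 0.99), as a description.

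The other 9 genes were at or near the detection limit in LLC1. Of their 81 values 57 corresponded to at most 3 reads and 29 were 0, and the highest was 28.3 normalised counts. Epcam measured 7.5, 2.5 and 28.3 in parental, 1.0, 5.5 and 25.1 in chronic IFNG and 1.8, 0 and 0 in relapsed libraries. Cdh1 measured 17.4, 1.2 and 15.3, then 1.9, 5.2 and 16.8, then 3.5, 1.0 and 0 in the same order. Replicate 3 of both the parental and the chronic IFNG group held the most Epcam, with Cldn4 at 12.6 and 16.9 in those libraries and at most 4.8 elsewhere. Cdh17 reached at most 11.2 counts, Vil1 14.9, Cldn7 6.4, Cldn3 6.1, Cdhr5 4.4 and Cdhr2 1.1. In relapsed tumours 26 of the 27 values were at most 3 reads. With no filter on low values, Cldn7 was called lower in relapsed than in parental tumours (6.4, 3.0 and 2.9 against 0, 0 and 0 normalised counts, log2 difference -0.18, limma adjusted p 0.00924 over 31618 genes). The relapsed Epcam libraries also lay below the parental ones but were not called (log2 difference -0.25, limma adjusted p 0.116). Together the 10 genes averaged 7.14 CPM in parental, 4.74 in chronic IFNG and 29.2 in relapsed LLC1 tumours. Most of each sum was Ocln, so the sums do not describe the other 9 genes. In normalised counts Ocln averaged 116.6 of a mean sum of 166.8 in parental and 68.7 of 107.8 in chronic IFNG tumours. In relapsed tumours it averaged 659.8 of 668.3.

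**Figure D5:**
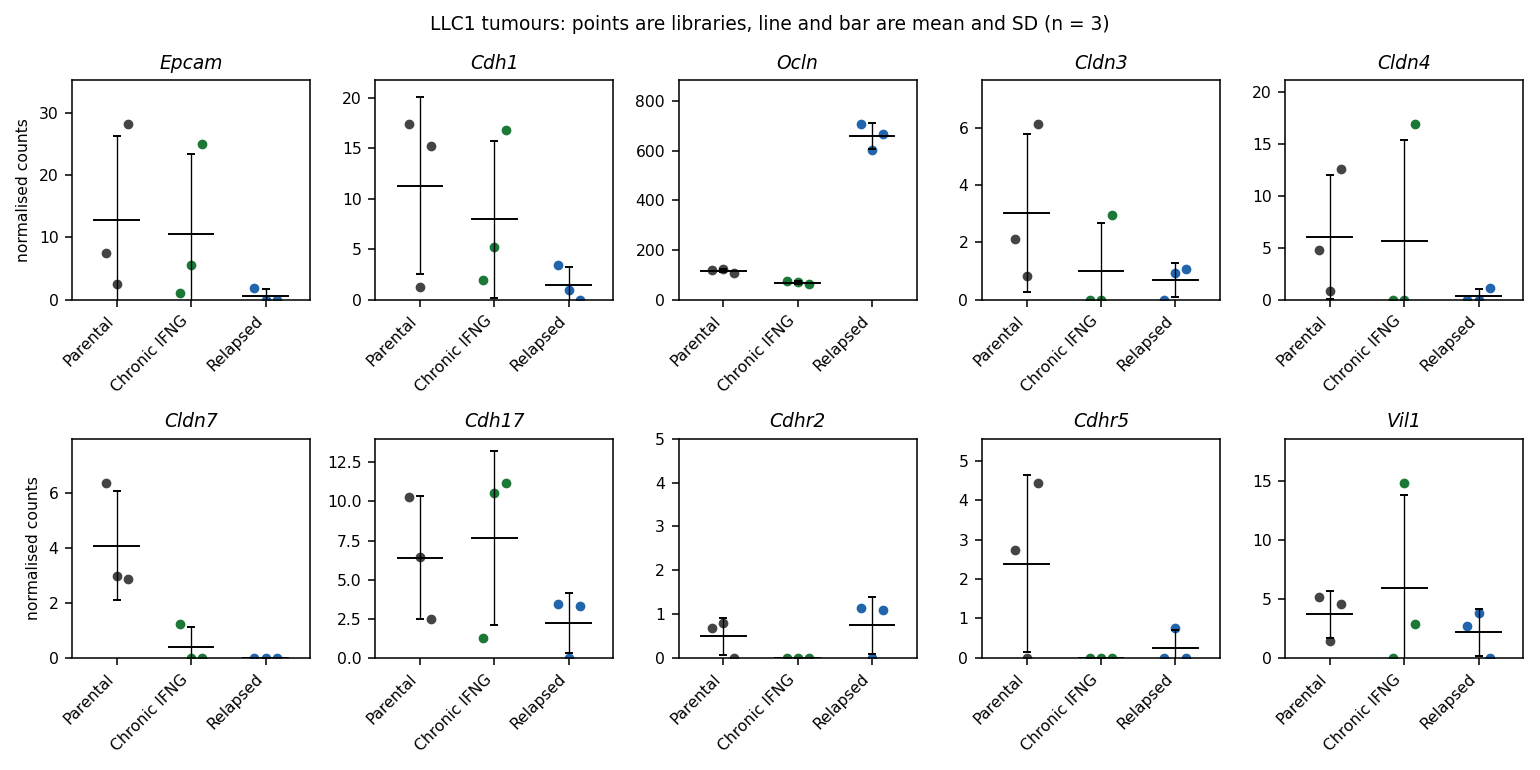
Normalised counts (linear scale from 0, 1 panel per gene) of the 10 genes in the 9 LLC1 libraries, with points for libraries and bars for mean and SD (n = 3). Ocln separates the 3 groups, and the other 9 genes stay at or under 28.3 counts.

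Of the listed partner genes, 5 of 22 in the tight junction, 10 of 12 in the adherens junction, 2 of 9 in the desmosome, 0 of 5 in the Epcam partner and 5 of 18 in the brush border list passed the filter in LLC1 tumours, as did 33.5% of all genes. Among all tested genes 9.03% were higher and 15.5% lower than in parental tumours in chronic IFNG, and 25.9% and 19.5% in relapsed tumours. Of 5 tested tight junction genes 0 rose and 2 fell in chronic IFNG and 2 rose and 1 fell in relapsed tumours, where the polarity kinase gene Prkci rose 1.88-fold. Of 10 adherens junction genes 2 rose and 1 fell in chronic IFNG, where Jup, which encodes plakoglobin, rose 2.20-fold (limma adjusted p 0.0158). In relapsed tumours 2 rose and 7 fell, among the latter Jup (179 ± 53.1 to 50.7 ± 30.4) and Nectin2 (242 ± 49.3 to 94.3 ± 24.0). Nectin3 rose 1.55-fold. Of 2 desmosome genes 0 rose and 2 fell in chronic IFNG, and 1 rose and 0 fell in relapsed tumours. Of 5 brush border genes 0 rose and 1 fell in chronic IFNG, and 3 rose and 0 fell in relapsed tumours, led by Eps8l2 (1.81-fold). Klf5 was the 1 tested epithelial regulator and fell in relapsed tumours from 319 ± 79.3 to 143.5 ± 27.9. All 6 repressors were tested, more than in KP. In chronic IFNG 1 of them rose and 2 fell. In relapsed tumours 0 rose and 4 fell, with Zeb2 at 3314 ± 347 in parental and 2051 ± 73.2 in relapsed libraries. Summed fibroblast markers ranged from 256413 to 364192 in parental, 456520 to 737732 in chronic IFNG and 283074 to 315144 in relapsed LLC1 libraries, with 7 of 9 higher and 0 lower in chronic IFNG and 1 higher and 5 lower in relapsed tumours. Most of each sum was Col3a1, which averaged 268299 of a mean sum of 314388 in parental and 495062 of 575650 in chronic IFNG tumours. In relapsed tumours Col3a1 averaged 272367 of 303462 and was not called, so the sums do not describe the other markers. Of 8 leukocyte markers 2 passed the filter, and in relapsed tumours Lyz2 rose 7.51-fold and Cd68 fell from 151 ± 23.9 to 98.1 ± 29.4 (limma adjusted p 0.0431), with summed leukocyte markers of 306 to 795 against 244 to 285 in parental libraries. The part of these cells in the Ocln differences was not tested.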

How the data were processed

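RNA was sequenced from 24 libraries, 9 of LLC1 and 15 of KP tumours. Per the submitters' processing notes, cutadapt 2.9, Salmon 1.8.0, DESeq2 1.34.0 and the build GRCm38/mm10 were used, without a role for each. The authors' values are log2-like and were judged from the tables to be variance-stabilised per line. Inverting the stabilisation, with each table's minimum (8.03 for LLC1 and 8.17 for KP) set to 0 counts, gave normalised counts. Their spacing gave depth, since 72.5% to 79.1% of low values came out as whole reads (tolerance 0.15), where 30% would by chance. Counting intervals and the limit of 3 reads cover counting error only.

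Groups were compared within each line with limma 3.58.1 (R 4.3.3), with an intensity trend, all groups of a line in 1 fit and Benjamini and Hochberg adjustment over 10581 LLC1 (33.5%) or 11193 KP genes (31.1%), tested on simulated data. No exact test of 3 against 3 libraries goes below 0.1. There were 13 comparisons. Symbols and coordinates came from GENCODE vM21 on GRCm38, leaving 70 LLC1 and 85 KP identifiers unmatched. The 10 genes, 12 gene lists and tests were chosen with earlier results of these data known. Beside the 10 genes, the text names up to 3 tested genes per list and line with the largest difference from parental tumours, the genes most like each of the 10, and markers near the floor. Further list genes given with their levels (Cdx2, Mep1b, Ush1c, Krt5, Sftpb, Scgb3a2) were chosen after their values were seen. Some genes the rule names, and part of the KP genotype, are not reported here. Alternatives were no filter, median centring, quantile normalisation, a stricter filter (3 log2 units), log2 counts with a pseudocount of 10, fits of 2 groups only, array weights, a replicate block and leaving out each library. Python 3.11.15 with matplotlib 3.10.9 made the figures.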

Additional observations from a re-analysis of the deposited data

Results flagged for a closer look

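Ocln moved in opposite directions in the 2 lines under chronic IFNG. It was lower than in parental tumours in LLC1 (log2 difference -0.22, all 3 libraries below the parental ones) and higher in KP (0.50, all 3 libraries above). In LLC1 both groups averaged under the filter (116.6 in parental and 68.7 in chronic IFNG against 130.4 normalised counts), where the deposited scale is compressed. Ocln was tested there only through the relapsed group. The difference between the lines was not tested because their tables were normalised separately.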

How the results depend on the processing

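Over the alternatives other than leaving out a library, 756 of 771 differences of single genes kept their direction and their side of the threshold, 13 changed their call and 2 their direction. Leaving out 1 library at a time, 1502 of 1527 did, 19 changed their call and 6 their direction. Many of these differences could not change, because the omitted library lay in neither compared group. The filters, the fits of 2 groups only and the replicate block also leave the difference itself unchanged, so that only the call could move. The shares kept are therefore no measure of robustness. Without a filter 2 genes instead of 1 were called in relapsed against parental LLC1 tumours. The second was Cldn7 (log2 difference -0.18, limma adjusted p 0.00924 over 31618 genes), which had at most 6.4 normalised counts. The filter of 3 log2 units (near 1598 counts for LLC1 and 1767 for KP) left 0 of the 10 genes in LLC1 and 0 calls in its 3 comparisons. It left 5 in KP, with 4 called in chronic IFNG, 5 in 1st relapse and 5 in 2nd relapse against parental tumours. Against chronic IFNG it gave 4 in 1st, 5 in 2nd and 3 in late relapse, and 4 for 2nd against 1st, 5 for late against 1st and 4 for late against 2nd relapse. These lower counts follow from fewer genes tested. Calls were also lost for Cldn4 in late against 1st relapse without a filter (limma adjusted p 0.0511), with quantile normalisation (0.0577), a pseudocount (0.0581) or array weights (0.0742), for Cdhr5 in late relapse against chronic IFNG without a filter (0.0517), with a pseudocount (0.0566) or 2 groups only (0.0675), and for Vil1 in 1st relapse against chronic IFNG with 2 groups only (0.0561). Calls were gained for Cdh1 in 1st and late relapse against chronic IFNG with quantile normalisation (0.0213 and 0.0225), and for Cldn4 with 2 groups only in late relapse against chronic IFNG (0.0132) and 2nd against 1st relapse (0.0448). The latter 2 were also gained without Parental KP replicate 1 (0.0459 and 0.0198).

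Leaving out each library gave 1 to 1 genes called in the 3 LLC1 comparisons. Against parental KP it gave 7 to 7 in chronic IFNG, 9 to 9 in 1st and in 2nd relapse and 7 to 8 in late relapse. Against chronic IFNG it gave 6 to 8 in 1st, 8 to 9 in 2nd and 4 to 6 in late relapse, and between relapses 6 to 8 (2nd against 1st), 9 to 10 (late against 1st) and 7 to 8 (late against 2nd).

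Direction reversed for uncalled differences. For Cldn4 in 2nd relapse against parental KP (-0.085) the value was 0.051 with array weights and -0.37 to 0.084 over the omitted libraries, above 0 without Parental KP replicate 2 or 3. For Cldn4 in chronic IFNG against parental it was -0.13 to 0.32, below 0 without Parental KP replicate 1. For Cldn4 in 1st relapse against chronic IFNG it was -0.029 to 0.30, below 0 without 1st relapse KP replicate 3. For Cdhr5 in late against 2nd relapse it was 0.0048 with array weights and -0.076 to 0.040 over the omitted libraries, above 0 without Late relapse KP replicate 1. For Cldn7 in late relapse against chronic IFNG it was -0.061 to 0.012, above 0 without Chronic IFNG KP replicate 1. The cause was not tested.

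Whether libraries of the same replicate number were paired was examined by correlation, which cannot exclude pairing. Deviations of same-numbered libraries from their group means had r of -0.30 to 0.08 over 9 pairs in LLC1 (median -0.05, against 0.04 for other numbers). In KP r was -0.22 to 0.27 over 30 pairs (median 0.05, against 0.0001). Of these pairs 0 in LLC1 and 8 in KP lay above 0.1, and 0 of 9 and 6 of 15 libraries correlated best with their own number. With the replicate number as a block the counts were 1 in each LLC1 comparison and 7, 9, 9 and 7 against parental KP. They were 7, 9 and 5 against chronic IFNG and 7, 10 and 7 between relapses, as without it. Of all genes 2278 were called with the block in chronic IFNG LLC1 and 2383 in chronic IFNG KP. Without it 955 were higher and 1641 lower in the former, and 1431 and 1007 in the latter.

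Cldn4 varied widely within its groups of 3 libraries, so for this gene differences of the size of its intervals could not be resolved. In LLC1 9 genes lay at or near the detection limit. Whole-gene values do not separate transcripts.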

Other observations

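Cldn4 was not alone in varying within KP groups. Cldn8 measured 11.6, 44.8 and 194 in parental and 26.3, 20.1 and 230.5 in 1st relapse libraries. Cldn10 measured 1.2, 18.9 and 30.4 in parental and 8.1, 6.8 and 49.6 in 1st relapse libraries. As for Cldn4, the lowest parental value was in replicate 1 and the highest 1st relapse value in replicate 3. These 2 genes were chosen after their values were seen, did not pass the filter on low values and were not tested.

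Among claudins outside the 10 genes, Cldn18 and Cldn2 moved in opposite directions in each KP group against parental tumours. Cldn18 measured 888, 1017 and 619 in parental, 278, 331 and 203 in chronic IFNG, 20.1, 35.7 and 32.8 in 1st relapse, 153, 169.8 and 112 in 2nd relapse and 26.7, 13.2 and 6.0 in late relapse libraries, and fell in all 4 groups. Cldn2 measured 1254, 689.7 and 843 in parental and 3277 to 8693 in the other 12 libraries, and rose in all 4 groups.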
